A study of Sus scrofa with 8 samples.

Results

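Connexins and pannexins are the channel-forming proteins examined here, as 6 genes of the pig: the connexin genes GJA1, GJA4, GJA5 and GJC1 and the pannexin genes PANX1 and PANX2. They were taken by gene name from the deposited table of raw counts, which lists 31014 genes, and all 6 were found. Messenger RNA of heart tissue of wild-type miniature pigs was sequenced in 3 samples given vehicle and 5 given doxorubicin, an anthracycline used against cancer that is known to damage the heart. The labels give no dose, schedule, age, sex or region of the heart. They also leave unsaid whether each sample is its own animal, so a p-value here reflects sample-to-sample spread alone, which may be technical.

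A connexin spans the cell membrane, and rings of connexins form a half-channel that docks with a half-channel of the next cell to make a gap junction. In the heart, gap junctions sit at the intercalated discs and pass the electrical impulse from muscle cell to muscle cell. In vessels, they couple endothelial and smooth muscle cells. Pannexins have a similar fold but act mainly as single membrane channels that release ATP, a signal read by purine receptors on nearby cells.

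Library totals ran from 16105242 to 17195538 counts with vehicle and from 17442566 to 18267178 counts after doxorubicin. Levels are CPM (a gene's reads relative to the total of its library, scaled by TMM), and the TMM factors lay between 0.839 and 0.874 with vehicle and between 1.05 and 1.18 after doxorubicin. Summed markers of heart muscle (9 of 10 listed genes found) were at 58221 to 64420 CPM with vehicle and 26346 to 56982 CPM after doxorubicin. Ventricular markers summed to at least 25248 CPM in every library, while atrial markers summed to at most 398 CPM, with BMP10 read in none. Mitochondrial counts made up 23.6% to 27.5% of each vehicle library and 8.70% to 16.6% of each doxorubicin library. The library doxorubicin 5 stood apart. It had the lowest share of mitochondrial counts (8.70%, against 12.3% to 16.6% in the other 4 doxorubicin libraries), the lowest heart muscle sum (26346 CPM) and the highest fibroblast sum (31454 CPM, against at most 7520 CPM elsewhere).

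The pannexin gene PANX1 rose after doxorubicin from almost no reads, and no other of the 6 genes passed the test. GJA1, by far the most abundant member, was at 519 ± 42.9 CPM with vehicle and 481 ± 63.9 CPM after doxorubicin (SD, n = 3 and n = 5). GJA4 was higher in 4 of 5 doxorubicin libraries than in any vehicle library but did not pass the test, and doxorubicin 5 lay below all 3 vehicle libraries. The test was edgeR's quasi-likelihood test over all 14938 tested genes, and a gene is called at a Benjamini-Hochberg adjusted p under 0.05. It called 1 of the 6 members, beside 24.9% of all tested genes (13.6% higher and 11.3% lower), so the count alone says nothing particular about the family. The same shares are the background for the counts of called cell type markers given below. The groups did not overlap for PANX1 only, beside 34.9% of all tested genes. The median log2 fold change of the 6 members was 0.52, and that of all tested genes was 0.02. The count of members called was 0 without vehicle 3, where 4.61% of all tested genes were called. It was 2 without doxorubicin 5, where 32.3% of all tested genes were called.

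**Figure D1:**
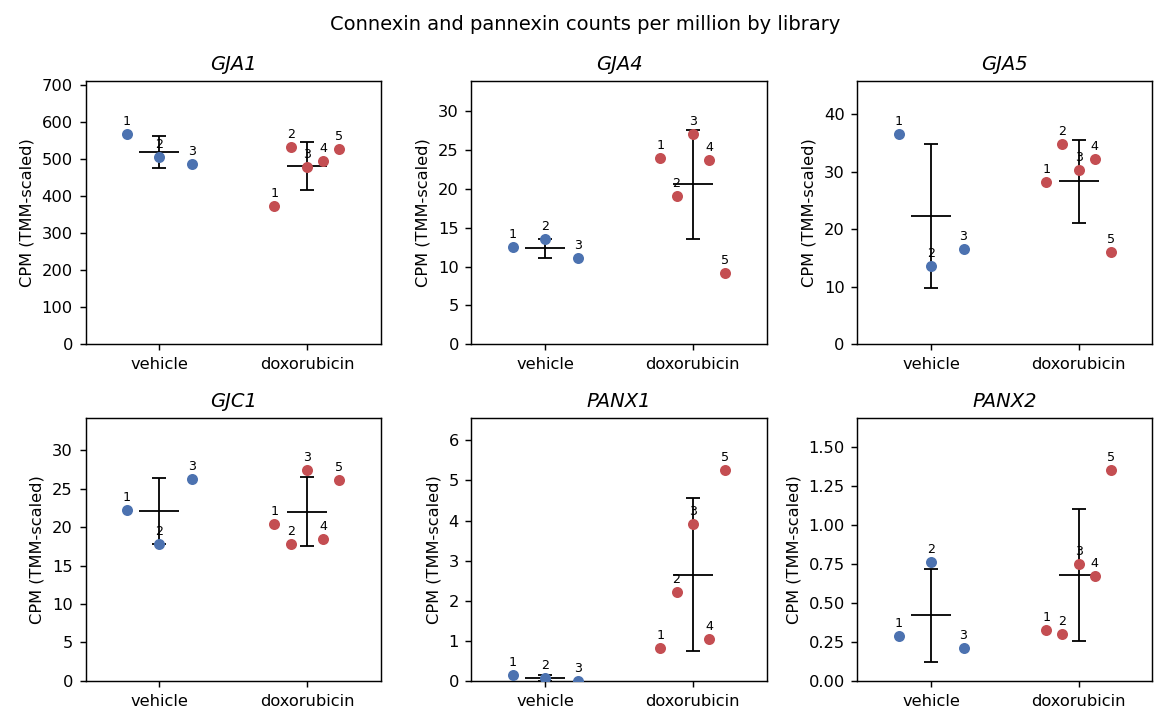
CPM (TMM-scaled, linear axis from 0) of the 6 genes in each library, numbered by replicate, for vehicle (blue, n = 3) and doxorubicin (red, n = 5); the long tick and bar are mean and SD. PANX1 is at most 0.143 CPM in vehicle and at least 0.819 CPM after doxorubicin, and GJA4 and GJA5 are lowest among the doxorubicin libraries in number 5.

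GJA1 encodes connexin-43, the main gap junction protein of ventricular muscle. It lies on the minus strand of chromosome 1, 40988818 to 41002129 (Sscrofa11.1). It was at 568, 504 and 486 CPM in vehicle 1 to 3, and at 374, 532, 477, 495 and 526 CPM in doxorubicin 1 to 5. Doxorubicin 1 lay well below the vehicle libraries and doxorubicin 3 just under them, and the other 3 fell within the vehicle range. The log2 fold change was −0.11 (SE 0.18, adjusted p = 0.684, edgeR), with a 95% interval from −0.52 to 0.30. That interval leaves room for a level after doxorubicin between 0.696 and 1.23 times that of vehicle. The sign turned to 0.25 with scaling by library size only, where the median of all genes moved to 0.38, and to 0.19 with each library's trend with gene density removed.

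GJC1 encodes connexin-45, known from the conduction system and from smooth muscle. The gene lies on the plus strand of chromosome 12, 18526060 to 18560221. It was at 22.2, 17.8 and 26.2 CPM in vehicle 1 to 3, and at 20.4, 17.8, 27.4, 18.4 and 26.1 CPM in doxorubicin 1 to 5. The groups overlapped almost completely. The log2 fold change was −0.0033 (SE 0.20, adjusted p = 0.992, edgeR; 95% interval from −0.46 to 0.45), so its sign carries no information. Smooth muscle markers had 1 of 8 higher and 0 lower, and their sum was 581 to 1074 CPM with vehicle and 683 to 4334 CPM after doxorubicin. Pericyte markers had 2 higher and 1 lower of 7, with sums of 647 to 873 CPM and 413 to 915 CPM.

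GJA5 encodes connexin-40, which couples atrial muscle, the fast conduction fibres and arterial endothelium. It lies on the plus strand of chromosome 4, 99854129 to 99871288. It was at 36.6, 13.7 and 16.5 CPM in vehicle 1 to 3, and at 28.3, 34.9, 30.3, 32.2 and 16.1 CPM in doxorubicin 1 to 5. Vehicle 1 was the highest of all 8 libraries and doxorubicin 5 lay among the 2 low vehicle libraries, so the groups overlapped. The log2 fold change was 0.35 (SE 0.35, adjusted p = 0.476, edgeR; 95% interval from −0.43 to 1.12). It was 0.91 (SE 0.30, adjusted p = 0.0958) without vehicle 1 and 0.09 without vehicle 2. Vehicle 1 also had the highest smooth muscle sum among vehicle libraries (1074 CPM against 581 and 640 CPM). Conduction system markers summed to 63.3 to 79.5 CPM with vehicle and 79.0 to 88.5 CPM after doxorubicin, with 2 higher and 1 lower of 7 tested. The higher were IRX3 (33.6 to 50.9 CPM) and CACNA1G (0.542 to 4.04 CPM), and the lower was TBX3 (26.7 to 14.3 CPM). IRX3 and TBX3 made up most of the sum and are counted again among the transcription factors below. HCN4, ISL1 and VSNL1 had group means of at most 0.0782 CPM and were not tested, so the sum says little about conduction tissue. The part of these markers in the GJA5 values was not tested.

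GJA4 encodes connexin-37, a connexin of arterial endothelium. It lies on the plus strand of chromosome 6, 91045430 to 91048161. It was at 12.5, 13.5 and 11.1 CPM in vehicle 1 to 3, and at 24.0, 19.0, 27.1, 23.7 and 9.15 CPM in doxorubicin 1 to 5. Doxorubicin 1 to 4 were above every vehicle library, and doxorubicin 5 was below every one. The log2 fold change was 0.74 (SE 0.31, adjusted p = 0.105, edgeR), a 1.67-fold difference with a 95% interval from 1.03 to 2.69 that did not pass the adjusted threshold. Without doxorubicin 5, GJA4 was called, at 0.93 on the log2 scale (SE 0.16, adjusted p = 0.00434, edgeR). No other fit with 1 library left out called it. Among those fits the log2 fold change went down to 0.62 and the adjusted p up to 0.269 (edgeR).

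The general endothelial markers, among them PECAM1 and CDH5, had 1 higher and 1 lower of 10. Their sum was 1321 to 1678 CPM with vehicle, 987 to 1684 CPM in doxorubicin 1 to 4 and 619 CPM in doxorubicin 5. In bulk tissue, fewer cells of a type and less RNA per cell cannot be told apart. Arterial endothelial markers had 1 higher, UNC5B, and 0 lower of 10. Their sum was 403 to 425 CPM with vehicle, 463 to 509 CPM in doxorubicin 1 to 4 and 375 CPM in doxorubicin 5. As a share of the general endothelial sum, a ratio chosen after the values were seen and given with no test, GJA4 was 0.661% to 1.02% with vehicle and 1.38% to 2.75% after doxorubicin, with 1.48% in doxorubicin 5. That share did not overlap between the groups. The same share for GJA5 was 0.983% to 2.43% with vehicle and 1.78% to 3.07% after doxorubicin, and these overlapped. As a share of the arterial sum instead, GJA4 in doxorubicin 5 lay below every vehicle library, so the groups overlapped. The missing overlap of GJA4 therefore depends on which marker sum is taken. The part of endothelial content in the GJA4 result was not tested.

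**Figure D2:**
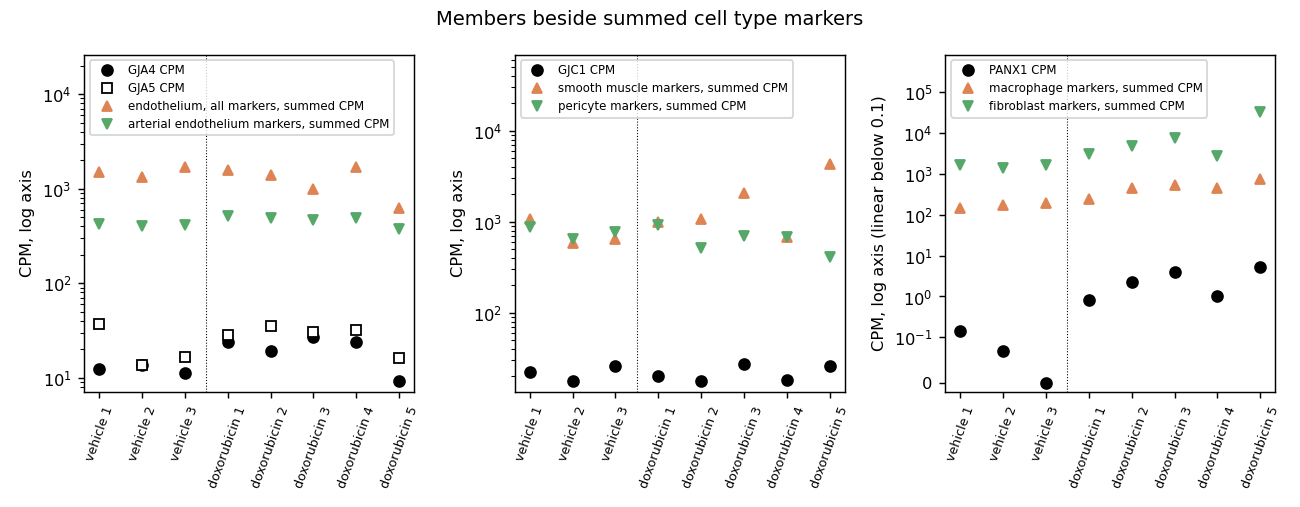
CPM of GJA4 and GJA5 (left), GJC1 (middle) and PANX1 (right) in each library, beside the summed CPM of cell type markers on log axes (the right axis is linear below 0.1 so that 0 can be drawn). In doxorubicin 5, GJA4 and the endothelial sum are at their lowest (9.15 and 619 CPM). PANX1 and the fibroblast, macrophage and smooth muscle sums are at their highest there (5.25, 31454, 732 and 4334 CPM).

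PANX1 encodes a widely expressed pannexin that releases ATP and is opened by caspase cleavage in dying cells. The gene lies on the plus strand of chromosome 9, 26443425 to 26491010. It had 2, 1 and 0 reads in vehicle 1 to 3, and 15, 44, 84, 20 and 105 reads in doxorubicin 1 to 5. In CPM this was 0.143, 0.0693 and 0 with vehicle, and 0.819, 2.22, 3.92, 1.04 and 5.25 after doxorubicin. Every doxorubicin library was above every vehicle library, and the doxorubicin libraries themselves spread more than 6-fold. The fitted log2 fold change was 5.10 (SE 0.99, adjusted p = 0.0103, edgeR; 95% interval from 2.88 to 7.32). With 3 vehicle reads in all, the ratio of pooled CPM was 38.4, and its 95% counting interval ran from 13.0 to 187 and covers counting error only. PANX1 entered the test through the doxorubicin libraries alone, since no vehicle library reached 10 reads. Without vehicle 3, the library at 0, the adjusted p was 0.0522 and the call was lost. In that fit calls over all genes also fell, from 24.9% to 4.61% of those tested. Without vehicle 1 the log2 fold change was 5.98 (adjusted p = 0.0486). It was 4.70 (adjusted p = 0.00623) without doxorubicin 5, the highest library.

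The macrophage and fibroblast marker sums were higher in every doxorubicin library than in any vehicle library, as PANX1 was. Macrophage markers had 5 higher and 0 lower of 8 tested, with sums of 142 to 190 CPM with vehicle and 240, 446, 540, 448 and 732 CPM in doxorubicin 1 to 5. Fibroblast markers had 4 higher (LUM, COL1A1, COL3A1 and POSTN), 1 lower (PDGFRA) and 5 not called of 10. Their sums were 1397 to 1594 CPM with vehicle and 3029, 4808, 7520, 2658 and 31454 CPM in doxorubicin 1 to 5. Lymphocyte markers had 5 higher and 0 lower of 5 tested (sums of 5.36 to 9.46 CPM and 15.4 to 33.5 CPM). PANX1 and the fibroblast and macrophage sums were all highest in doxorubicin 5 and next highest in doxorubicin 3. The smooth muscle sum had the same order (4334 and 2087 CPM). Its largest genes after doxorubicin were TAGLN (770 ± 826 CPM) and ACTA2 (594 ± 712 CPM), and neither was called. Of its 8 genes, 5 had a positive log2 fold change, while that of MYH11, SMTN and SYNPO2 was negative. Which cells carried this RNA was not tested. The part of these cell types in the PANX1 result was not tested.

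PLD4, COL5A1 and COL12A1 had the profiles most like that of PANX1 over the 8 libraries. Likeness was the root mean square difference of log2 CPM with 0.1 added, each gene centred on its own mean, and it was 0.38, 0.39 and 0.40. The added 0.1 understates the change of PANX1. Since PANX1 was near 0 with vehicle and higher in every doxorubicin library, choosing by likeness to it fixed the direction of these genes and favours small p-values, so their values are a description. PLD4, an endosomal nuclease of immune cells, rose from 1.88 ± 0.79 to 20.1 ± 13.0 CPM (adjusted p = 0.0110, edgeR). COL5A1, a fibrillar collagen chain, rose from 22.3 ± 2.09 to 278 ± 202 CPM (adjusted p = 0.00715), and COL12A1, a collagen that associates with fibrils, from 13.6 ± 2.76 to 213 ± 163 CPM (adjusted p = 0.00907). PLD4 (adjusted p up to 0.0571) and COL12A1 (0.0512) lost their call without vehicle 3, and PLD4 also without vehicle 1.

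PANX2 encodes a pannexin known mainly from the nervous system. It lies on the minus strand of chromosome 5, 497380 to 506126. It had 4, 11 and 3 reads in vehicle 1 to 3, and 6, 6, 16, 13 and 27 reads in doxorubicin 1 to 5. In CPM this was 0.286, 0.763 and 0.213 with vehicle, and 0.327, 0.303, 0.747, 0.674 and 1.35 after doxorubicin. The groups overlapped, with vehicle 2 above 4 of the 5 doxorubicin libraries. The log2 fold change was 0.68 (SE 0.68, adjusted p = 0.474, edgeR; 95% interval from −0.83 to 2.19). That interval holds both no change and a 4-fold rise, so neither is excluded. With 1 library left out the log2 fold change of PANX2 ran from 0.29 (without doxorubicin 5) to 1.42 (without vehicle 2), and none of these fits called it. Nerve markers had 0 higher and 2 lower of 7 tested (sums of 79.1 to 104 CPM and 56.9 to 103 CPM).

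**Figure D3:**
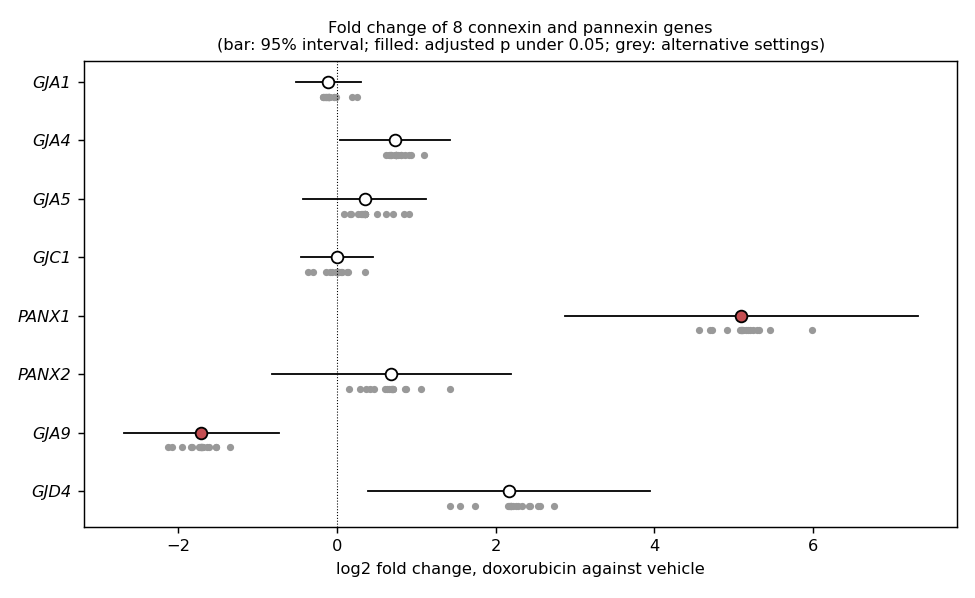
Log2 fold change, doxorubicin against vehicle, of the 6 genes and of 2 other tested family genes, GJA9 and GJD4; circles are the reported values with 95% intervals, filled where the adjusted p is under 0.05, and grey points are the alternative settings. PANX1 (5.10) and GJA9 (−1.71) keep their sign in every setting, while the points of GJA1 and GJC1 lie on both sides of 0.

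Compared per length (CPM per kilobase of the gene length in the deposited table), GJA1 led in both groups, at 169 ± 13.9 with vehicle and 156 ± 20.8 after doxorubicin. GJA4 followed at 7.80 ± 0.769 and 13.0 ± 4.43, then GJA5 at 5.91 ± 3.33 and 7.52 ± 1.93, and GJC1 at 2.15 ± 0.414 and 2.15 ± 0.432 CPM per kilobase. GJA4 and GJA5 overlapped across libraries in both groups, and every other neighbouring pair of connexins was apart. The pannexins came last. PANX2 (0.138 ± 0.0978) lay above PANX1 (0.0108 ± 0.0109) with vehicle without overlap, and after doxorubicin PANX1 (0.403 ± 0.290) and PANX2 (0.223 ± 0.139) overlapped.

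Within a library the make-up of the connexins does not depend on the scaling of libraries. GJA1 made up 90.3%, 92.2% and 91.9% of the summed level per kilobase of the 4 connexins in vehicle 1 to 3. In doxorubicin 1 to 5 it made up 83.1%, 88.3%, 84.8%, 86.4% and 93.1%. It was lower than in any vehicle library in doxorubicin 1 to 4 and higher than in any in doxorubicin 5. The GJA4 share was 3.86% to 4.80% with vehicle, 6.13% to 10.4% in doxorubicin 1 to 4 and 3.15% in doxorubicin 5. GJA1 was therefore 19.2 to 23.4 times the level of GJA4 with vehicle and 8.02 to 29.6 times after doxorubicin. GJA5 took 2.04% to 4.77% and 2.33% to 5.14%, and GJC1 0.975% to 1.49% and 0.887% to 1.46%, both overlapping between the groups.

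**Figure D4:**
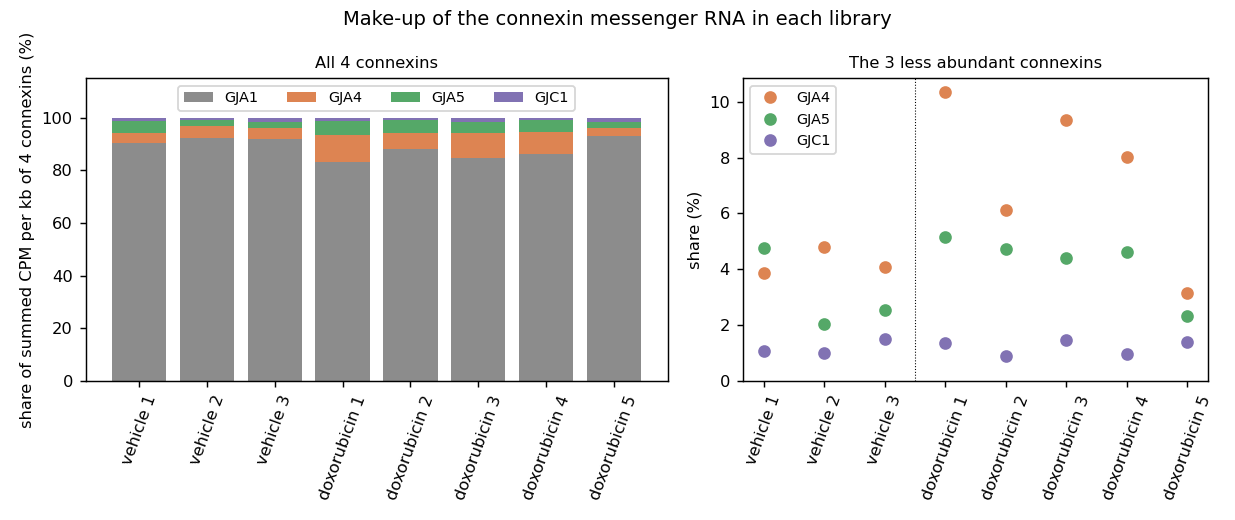
Share of each connexin in the summed CPM per kilobase of GJA1, GJA4, GJA5 and GJC1 by library, with all 4 stacked (left) and the 3 less abundant ones alone (right; the dotted line parts vehicle from doxorubicin). GJA4 takes at most 4.80% in vehicle, 6.13% to 10.4% in doxorubicin 1 to 4 and 3.15% in doxorubicin 5.

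Of 18 other connexin and pannexin genes listed, 17 were found by symbol, and 13 of these had fewer than 10 reads in every library. The remaining 4 were tested, and GJA9 and GJD4 are described here. GJA9, a connexin gene of few known functions, had 31, 25 and 34 reads in vehicle 1 to 3 and 5, 10, 15, 13 and 21 reads in doxorubicin 1 to 5. It fell by 1.71 on the log2 scale (SE 0.44, adjusted p = 0.0222, edgeR), with no overlap. Without vehicle 1 or vehicle 3 the adjusted p was 0.0841 or 0.0916, and the call was lost. GJD4, known from muscle, had 2 to 10 reads with vehicle and 9, 40, 31, 30 and 103 reads in doxorubicin 1 to 5 (log2 fold change 2.17, SE 0.79, adjusted p = 0.0703), and was not called. Doxorubicin 5 held the most GJD4 reads, and without it the log2 fold change of GJD4 was 1.55 (adjusted p = 0.0860, edgeR). With any 1 library left out the adjusted p of GJD4 ran from 0.0325 (without doxorubicin 1, where it was called) to 0.208 (without vehicle 3).

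Another connexin gene, GJB5, lies 42.1 kb from GJA4 on chromosome 6, and it had no more than 2 reads in any library. No gene of the deposited table overlapped any of the 6 members.

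Of 15 tested genes for scaffold and trafficking proteins of gap junctions, 3 had higher and 1 had lower messenger RNA, and 11 were not called, beside 24.9% called of all tested genes. The median log2 fold change was −0.37 (0.02 for all genes). DBN1, an actin binding protein known to hold connexin-43 at the membrane, rose from 8.23 ± 1.84 to 39.5 ± 24.0 CPM (adjusted p = 0.0104, edgeR). CAV3, the muscle caveolin, rose from 28.9 ± 10.5 to 68.2 ± 12.3 CPM (adjusted p = 0.0112). TUBB, a tubulin, rose 1.51-fold (adjusted p = 0.0484), and DLG1, a scaffold with PDZ domains, fell by 0.63 on the log2 scale (SE 0.15, adjusted p = 0.0185). Each of the 4 lost its call without vehicle 1 (0.0911 for DLG1) or vehicle 3 (0.189 for TUBB), and TUBB also without vehicle 2 or any 1 of doxorubicin 1 to 4. With scaling by library size only, the list had 3 higher and 0 lower. Sums were 1812 to 1889 CPM with vehicle and 1542 to 1944 CPM after doxorubicin.

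Adhesion genes of the intercalated disc had 1 higher, 3 lower and 13 not called of 17, with a median of −0.11. Beside this, 24.9% of all tested genes were called. DSC2, a desmosomal cadherin, fell from 193 ± 28.8 to 110 ± 10.3 CPM (adjusted p = 0.0102, edgeR). CTNNA3, the heart alpha-catenin, fell from 150 ± 39.0 to 70.5 ± 20.2 CPM (adjusted p = 0.0179), and CDH2, N-cadherin, from 653 ± 51.1 to 393 ± 90.0 CPM (adjusted p = 0.0438). JUP, plakoglobin, which links cadherins to desmosomes, rose from 65.8 ± 4.09 to 105 ± 19.2 CPM (adjusted p = 0.0297). Without vehicle 1, none of the 4 passed (adjusted p up to 0.149, for CDH2). CTNNA3, JUP and CDH2 also lost their call without vehicle 3, JUP and CDH2 without vehicle 2, doxorubicin 2 or doxorubicin 3, and CDH2 without doxorubicin 4. With scaling by library size only, the list had 1 higher and 0 lower. Heart muscle markers had 0 higher and 2 lower of 9 (median −0.56).

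Enzymes that add phosphate to connexins or remove it had 5 higher, 3 lower and 7 not called of 15, and a median of 0.32. Among all tested genes 13.6% were higher and 11.3% lower. SRC, a tyrosine kinase that closes connexin-43 channels, rose from 14.8 ± 2.26 to 38.1 ± 8.87 CPM (adjusted p = 0.00674, edgeR). MAPK7, a kinase of the MAP family, rose from 12.8 ± 2.41 to 30.4 ± 7.34 CPM (adjusted p = 0.00865). PPP1CA, a catalytic subunit of protein phosphatase 1, rose 1.86-fold (adjusted p = 0.00876). MAPK8, the stress kinase JNK1, fell from 46.2 ± 0.483 to 27.0 ± 3.52 CPM (adjusted p = 0.00852). SRC and MAPK8 passed whichever library was left out. MAPK7 lost its call without vehicle 1 or vehicle 3, and PPP1CA without vehicle 3 (0.0530). With library size only the list had 8 higher and 1 lower.

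Transcription factors known to act on connexin genes had 1 higher, 3 lower and 13 not called of 17, with a median of −0.0031. The share called over all tested genes was 24.9%. TBX3, a repressor of GJA5 and GJA1 in the conduction system, fell from 26.7 ± 3.66 to 14.3 ± 3.60 CPM (adjusted p = 0.0197, edgeR). HEY2, a transcriptional repressor found in compact ventricular muscle, fell from 60.0 ± 8.98 to 35.0 ± 10.4 CPM (adjusted p = 0.0365). SP3 fell by 0.45 on the log2 scale (adjusted p = 0.0492), and IRX3, a factor of the fast conduction fibres, rose 1.51-fold (adjusted p = 0.0486). None of the 4 passed without vehicle 1 or without vehicle 3 (adjusted p up to 0.191, for IRX3). TBX3, HEY2 and SP3 also failed without vehicle 2, HEY2, SP3 and IRX3 without doxorubicin 2, 3 or 4, and IRX3 without doxorubicin 1. With library size only the list had 5 higher and 0 lower.

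Receptors and enzymes of released ATP and adenosine had 3 higher, 1 lower and 12 not called of 16 tested, with a median of 0.25. Calls over all tested genes stood at 24.9%. P2RY1, an ADP receptor, fell from 105 ± 16.4 to 30.8 ± 8.01 CPM (log2 fold change −1.76, SE 0.22, adjusted p = 0.00446, edgeR) and passed whichever library was left out. P2RX4, an ATP-gated ion channel, rose from 4.61 ± 0.916 to 11.4 ± 5.15 CPM (adjusted p = 0.0326). P2RY6, a receptor for UDP, had 0 to 2 reads with vehicle and 9 to 242 after doxorubicin (adjusted p = 0.0336), and its log2 fold change went from 5.22 to 4.07 without doxorubicin 5. ADORA2B, a low-affinity adenosine receptor, had 0 to 1 and 5 to 23 reads (adjusted p = 0.0151), and its 2 vehicle reads give a pooled ratio of 15.3 with a counting interval from 4.07 to 128. P2RY6 and ADORA2B entered the test through the doxorubicin libraries alone, as PANX1 did, so the count of higher genes in this list rests in part on that filter. P2RX4, P2RY6 and ADORA2B lost their calls without vehicle 1 (0.130, 0.121 and 0.0669) or vehicle 3, and P2RX4 and P2RY6 also without vehicle 2 or doxorubicin 3. P2RX7, an ATP-gated channel often studied with PANX1 and named after its values were seen, was at 13.1 ± 3.58 and 8.76 ± 4.13 CPM (adjusted p = 0.262).

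Genes of pannexin cleavage and the inflammasome had 1 higher, 0 lower and 8 not called of 9 tested, with a median of 0.51. For all tested genes the share called was 24.9%. GSDMD, which forms pores in inflammatory cell death, rose from 7.36 ± 3.10 to 17.3 ± 7.52 CPM (adjusted p = 0.0463, edgeR), and lost its call without any 1 of the vehicle libraries (up to 0.166) or of doxorubicin 2 and 3. IL18 had 3 to 6 reads with vehicle and 6 to 273 after doxorubicin (adjusted p = 0.0596), so it too entered the test through the doxorubicin libraries alone. It was called in 5 of 18 alternatives: library size only, replicate block, DESeq2, without doxorubicin 1 and without doxorubicin 4. NLRP3 was at 2.35 ± 0.577 and 4.04 ± 1.38 CPM (0.125), and CASP8 at 7.24 ± 1.20 and 9.65 ± 1.55 CPM (0.155). With library size only the list had 4 higher and 0 lower.

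Other channels that pass ATP or anions had 0 higher, 1 lower and 8 not called of 9 tested, with a median of −0.08. Beside this stands 24.9% called of all tested genes. VDAC2, a pore of the outer mitochondrial membrane, fell from 785 ± 53.3 to 477 ± 109 CPM (adjusted p = 0.0438, edgeR). VDAC3 and VDAC1 had log2 fold changes of −0.62 and −0.51 (adjusted p = 0.0767 and 0.0780), and LRRC8D, a subunit of the volume-regulated anion channel, had 0.77 (0.0533). VDAC2 lost its call without any 1 of the vehicle libraries (up to 0.136) or of doxorubicin 1 to 3, and LRRC8D was called without doxorubicin 5 (0.0338). With library size only the list had 1 higher and 0 lower: VDAC2 lost its call (0.195) and LRRC8D was called (0.0166).

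**Figure D5:**
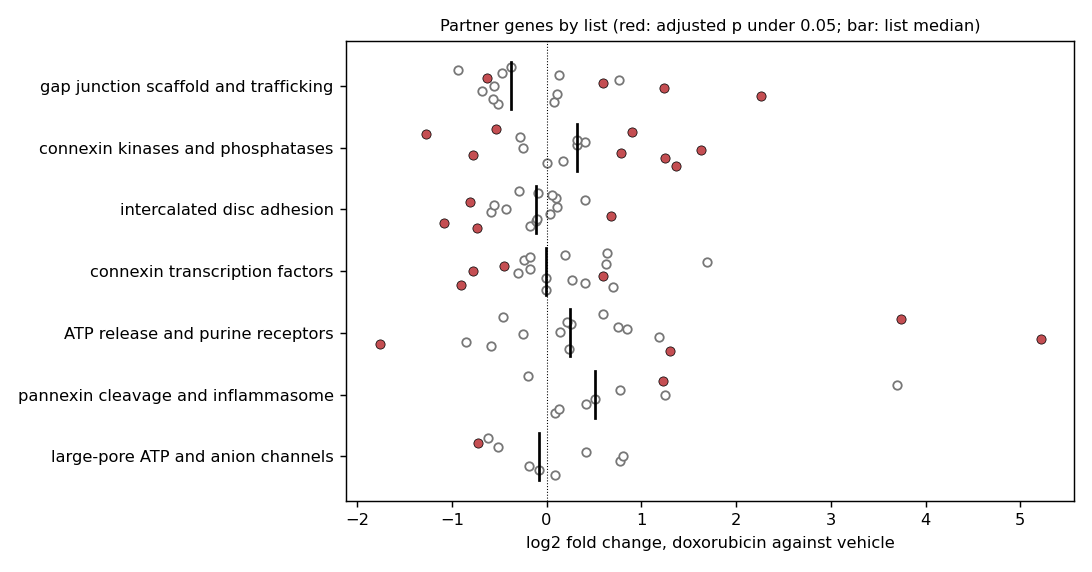
Log2 fold change, doxorubicin against vehicle, of every tested gene in the 7 partner lists; red points have an adjusted p under 0.05 and the bar is the list median. The list medians lie between −0.37 and 0.51, with called genes on both sides of 0 in 5 of the 7 lists.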

How the data were processed

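Raw counts per gene were deposited by the authors in 1 table with a column for each of 8 heart libraries (3 vehicle, 5 doxorubicin). Columns were matched to samples by the titles in the labels. Per the labels' protocols, RNA was purified on columns and libraries were made with a SMARTER mRNA kit; aligner, counter, strand setting and build: not given in the sources used here. Gene lengths in bases come from the deposited table. Start and end matched RefSeq's Sscrofa11.1 table for all 30335 shared identifiers, so coordinates are on that assembly.

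Counts were fitted in R 4.3.3 with edgeR 4.0.16: filterByExpr (minimum count 10, minimum total 15), TMM, robust quasi-likelihood with treatment as the only term, two-sided, Benjamini-Hochberg over 14938 genes. Each SE is the absolute log2 fold change over the root of F. CPM are mean ± SD. The code was tested on simulated counts. Members and lists were chosen with earlier results of these data known. Named were the 6 members, other family genes with 10 or more reads in any library, up to 4 genes of smallest p per list, and the 3 profiles most like each called member; some of these genes are not reported here. Same-numbered libraries did not deviate together. Alternatives included DESeq2 1.42.0 and limma 3.58.1. Figures were drawn with matplotlib 3.10.9.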

Additional observations from a re-analysis of the deposited data

Results flagged for a closer look

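In 4 of 41 named genes, 1 of the 5 doxorubicin libraries was far from the other 4 (a gap above 0.71 of the range, on CPM). The usual rate of about 1 in 20 holds for normal, independent values. These genes share the same libraries and many were named for a small p, so that rate does not apply here. DBN1 was at 81.8 CPM in doxorubicin 5, against 23.0 to 34.0 CPM in the others. JUP was at 71.1 CPM in doxorubicin 5, against 109 to 116 CPM. IL18 was at 13.7 CPM in doxorubicin 5, against 0.311 to 4.16 CPM. LRRC8D was at 12.9 CPM in doxorubicin 3, against 7.30 to 7.78 CPM. None of the 6 connexin and pannexin genes was among them.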

How the results depend on the processing

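PANX1 kept its sign in all 18 alternatives and its call in all but 1 (without vehicle 3). The count of members called was 2 with library size only (GJA4 and PANX1), 2 with the replicate block (GJA4, adjusted p = 0.0223), 4 with limma voom (GJA4, GJA5 and PANX1 higher, GJC1 lower with adjusted p = 0.0463), and 0 to 2 with 1 library left out. Signs turned for GJA1 with library size only (0.25) and with the density trend removed (0.19). GJC1 turned with RLE factors (0.0057), library size only (0.36), TMM without abundant genes (0.0094), DESeq2 (0.0059) and with the length trend removed (0.13), and ran from −0.14 to 0.14 with 1 library left out. The cause was not tested. Over all genes 3714 passed, 2033 higher and 1681 lower. With 1 library left out, the fewest passed without vehicle 1 (649) and vehicle 3 (712), and the most without doxorubicin 5 (4737). Calls of single genes lost without vehicle 1 or vehicle 3 stand beside that general drop. Library size only gave 4093 higher and 499 lower over all genes, and limma voom 8051 in all. The block moved the count to 3638; same-numbered libraries had correlations of deviations of 0.0026, 0.0057 and 0.061, so the numbers were not taken as pairs. The GJA1 share of the connexins with vehicle was 90.2% without division by length (91.5% with it), and 91.1% to 92.0% with 1 library left out (85.6% to 88.1% after doxorubicin). Of 26 called genes named besides the members, SRC, MAPK8, P2RY1 and COL5A1 passed in every alternative, and 22 lost their call in at least 1; COL5A1 was chosen for its likeness to PANX1, which favours such a result. PANX2 could not be tested under a filter of CPM above 1 in at least 3 libraries. PANX1 and PANX2 rest on few reads, at most 11 in any vehicle library.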

Other observations

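Doxorubicin 5 had the lowest GJA4 (9.15 CPM) and GJA5 (16.1 CPM) and the highest PANX1 (5.25 CPM) and PANX2 (1.35 CPM), and also the highest GJD4 (5.15 CPM). Doxorubicin 1 had the lowest GJA1 (374 CPM), PANX1 (0.819 CPM), GJD4 (0.491 CPM) and GJA9 (0.273 CPM) of the 5. These are values of 1 library each, with no test.

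Venous, endocardial and lymphatic endothelial markers had 0 higher and 1 lower of 9, adipocyte markers 0 higher and 2 lower of 4 tested, epicardial markers 0 and 0 of 2 tested, and red blood cell markers 0 and 0 of 2 tested. Atrial markers had 1 higher and 1 lower of 9 tested, and ventricular markers 0 higher and 1 lower of 6.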
